A study of Arabidopsis thaliana with 20 samples.

Results

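The genes described here are those whose array signal was higher in Arabidopsis thaliana plants after low CO2 than in plants at normal CO2. A gene was a member when its probe was tied to exactly 1 gene and its mean log2 signal in low CO2 exceeded that in normal CO2 by at least 0.5. A probe also needed 6 or more values above 0 in each group. This gave 50 genes, out of 642 single-gene probes that met the detection minimum and 692 single-gene probes in all. One further gene above the minimum, AT5G59250, was left out by the rule, as was AT5G17630, which lay below it.

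Both groups were total RNA from wild-type plants of the ecotype Columbia 0. The low CO2 group had spent its last 96 h at 0.003% CO2 by volume and is marked 4d in the sample titles. The normal CO2 group is marked 0d, so CO2 level and day differ together and their effects cannot be told apart. Each group held 10 columns of array intensities, numbered 1 to 10; the labels name neither the tissue nor the age of the plants, nor whether the numbers stand for separate plants.

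CO2 is fixed by Rubisco in the chloroplast, and the same enzyme also takes up oxygen, which starts photorespiration. When CO2 is scarce, less of the ATP and NADPH made in the light is used for carbon fixation. Plants are known to export surplus reducing power from the chloroplast as malate, and the chloroplast is also where lysine and the branched-chain amino acids are made. The series forms part of a survey of the nuclear genes whose proteins work in the chloroplast, under different growth conditions.

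Column totals were 3604 to 3797 in low CO2 and 3495 to 3749 in normal CO2, in the authors' intensity units. Each of the 20 columns resembled 1 neighbour most in how it departed from its group mean (1 and 2, 3 and 4, up to 9 and 10). Neighbours were therefore averaged, and a spread is given over 5 averaged pairs per group. Any such spread covers these samples only and may be technical. Signal is given as log2 relative to the column median; it ranks a probe's brightness and is not an amount of transcript.

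The values that chose the members are described here without a test. The 50 differences ran from 0.52 to 2.83 on the log2 scale, with a median of 0.62, against a median of 0.05 over all measured single-gene probes. A difference of 0.5 or more was reached by 7.94% of measured single-gene probes, by 7.58% of probes tied to several genes and by 6.86% of probes not listed in the annotation, so the single-gene probes were close to the other classes. Over all 3224 measured probes the share was 7.26%, while 13.1% were lower by 0.5 or more (9.03% of single-gene probes). Just inside the minimum were AT4G24750 (0.53), AT5G06410 (0.52) and AT1G32220 (0.52), and just outside it were AT3G13180 (0.499), PRA1.B6 (0.496) and AT3G15900 (0.492).

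The members fell into 37 genes with a signal in all 20 columns and 13 genes with at least 1 value of exactly 0. All 7 differences of 1 or more, which is at least a doubling, belonged to the 13 genes with zeros. The highest difference among the 37 was 0.94, and their median was 0.57. Genes with a signal throughout made up 74% of the members, against 91% of the measured single-gene probes. Among all probes, the minimum of 0.5 was reached by 12.7% of those with a zero and by 6.73% of those without. The plot of all 50 differences shows this division, with the open symbols holding the top of the order.

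**Figure D1:**
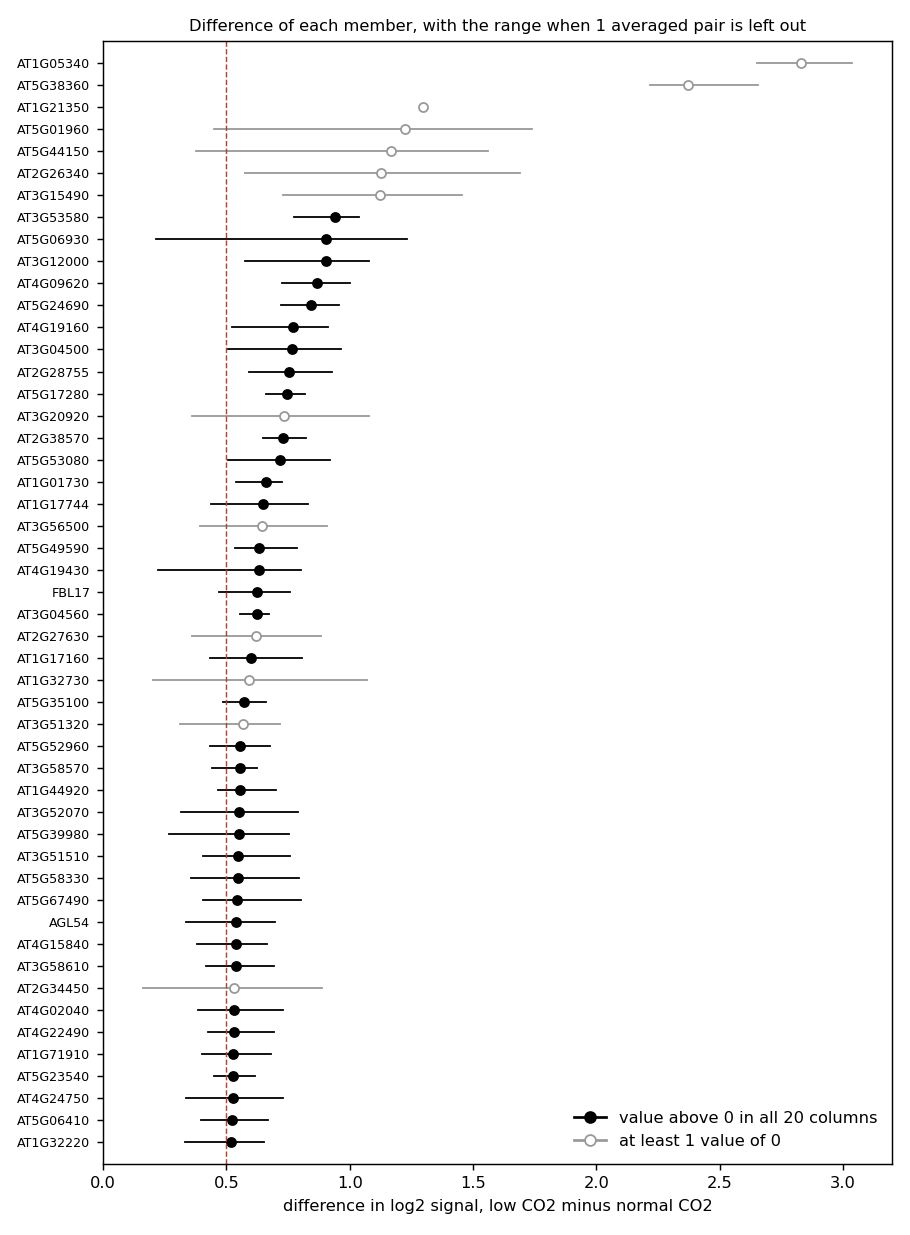
Difference in log2 signal, low CO2 minus normal CO2, for each of the 50 members in order of size (points), with the lowest and highest value when 1 averaged pair was left out (lines; a setting that left fewer than 6 values above 0 in a group is not drawn). Filled points are the 37 genes with a signal in all 20 columns, open points the 13 genes with at least 1 zero, and the dashed line is the minimum of 0.5; the 7 points beyond 1 are all open.

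For 7 of the members the averaged pairs did not overlap, every low CO2 pair lying above every normal CO2 pair: AT3G53580, AT5G24690, AT5G17280, AT2G38570, AT1G01730, AT3G04560 and AT3G58570. All 7 had a signal in all 20 columns. Among all 3277 probes with at least 3 averaged pairs in each group, 1.62% showed such a separation in this direction. The members were chosen on the same contrast, so their count, 7 of 50, is a description and is not read against that share. Without centring of the columns on their median, 2 members were separated in this way, and 0.763% of all probes. With quantile normalization it was 10 members and 1.68% of all probes, and with cyclic loess 7 and 1.46%. Leaving out a pair eases the criterion for every probe: omitting low CO2 columns 1 and 2 gave 13 members and 3.62% of all probes, and omitting low CO2 columns 7 and 8 gave 14 members and 2.70%.

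AT3G53580 encodes diaminopimelate epimerase, an enzyme of the chloroplast pathway that makes lysine. Its log2 signal in the 5 averaged pairs, in order of column number, was -0.28, -0.64, -0.57, -0.78 and 0.28 in low CO2, against -0.96, -1.37, -1.66, -1.23 and -1.48 in normal CO2. The gap between the groups was narrow, from low CO2 columns 7 and 8 to the first normal CO2 pair, and low CO2 columns 9 and 10 stood highest. The difference was 0.94, or 1.92-fold, with means of -0.40 ± 0.42 in low CO2 and -1.34 ± 0.26 in normal CO2 (SD, n = 5 each). Of the 18 genes listed for the synthesis of lysine, threonine and methionine from aspartate, AT3G53580 was the 1 gene with a single-gene probe, so the rest of the pathway was not analysed here.

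AT5G17280 had the tightest low CO2 values of the separated genes. Its log2 signal was 1.33, 1.38, 1.30, 1.40 and 1.52 in low CO2, against 0.58, 0.81, 0.31, 0.93 and 0.58 in normal CO2. The low CO2 pairs had an SD of 0.09 and the normal CO2 pairs one of 0.24, and the difference was 0.75. AT2G38570 lay at 1.32, 1.30, 1.54, 1.498 and 1.82 in low CO2, against 1.14, 0.52, 0.77, 0.77 and 0.64 in normal CO2. Here the first normal CO2 pair came closest to the low CO2 pairs, and the difference was 0.73.

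AT3G04560 had log2 signals of 1.35, 1.21, 1.03, 1.24 and 0.99 in low CO2, against 0.74, 0.73, 0.26, 0.50 and 0.48 in normal CO2. Unlike AT2G38570, its lowest low CO2 pair was the fifth; the difference was 0.62. For AT1G01730 the values were 2.60, 2.91, 2.55, 2.69 and 2.85 in low CO2, against 1.86, 2.33, 1.57, 2.22 and 2.33 in normal CO2. The lowest low CO2 pair was at 2.55 and the highest normal CO2 pair at 2.33, and the difference was 0.66.

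AT5G24690 gave 2.17, 2.83, 2.31, 2.004 and 2.94 in low CO2, against 1.75, 1.999, 1.34, 1.49 and 1.45 in normal CO2. Low CO2 columns 7 and 8 nearly met normal CO2 columns 3 and 4, and the difference was 0.84. AT3G58570 encodes a DEAD-box protein, a family of RNA helicases. It had -0.20, 0.11, 0.07, -0.17 and 0.51 in low CO2, against -0.21, -0.41, -0.24, -0.65 and -0.95 in normal CO2. The first pairs of the 2 groups were almost equal, and the difference was 0.56.

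**Figure D2:**
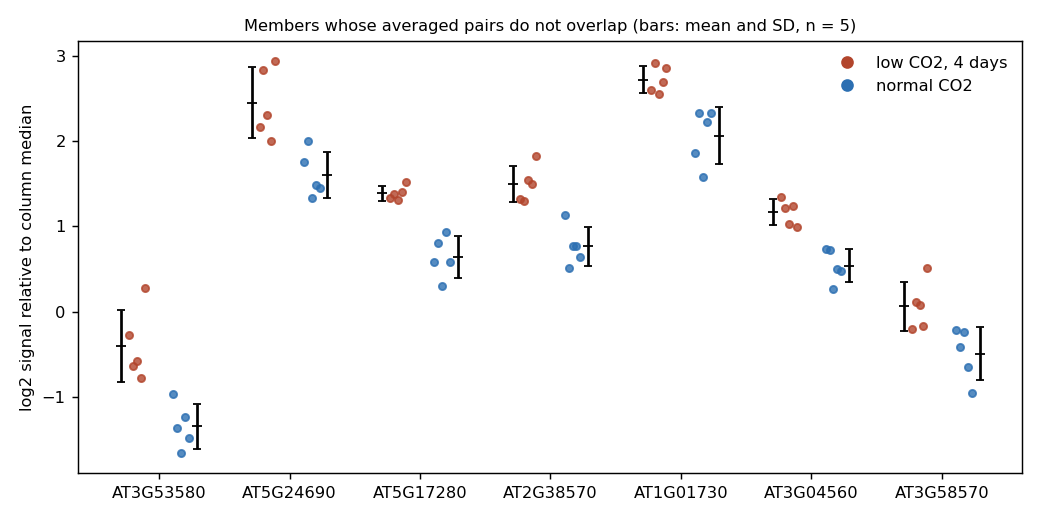
Log2 signal relative to the column median in each averaged pair (points) for the 7 members whose groups did not overlap, low CO2 on the left and normal CO2 on the right of each gene, with the mean and SD of 5 pairs (bars). AT5G17280 shows the narrowest low CO2 group (SD 0.09), and the gap between the groups is smallest in AT5G24690.

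In limma's fit to the averaged pairs, with p-values adjusted over all 3277 probes by the Benjamini-Hochberg method, 4 members passed a threshold of 0.05: AT3G53580, AT5G17280, AT2G38570 and AT3G04560. Over all probes, 0.366% passed as higher in low CO2. The rule used this contrast, so the calls support nothing about the members and are given as a description. Total RNA was measured and the labels do not name the tissue, so more cells of a type and more RNA per cell cannot be told apart in any of these differences.

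The count of 4 depended on single pairs, as did the calls over all probes. It dropped to 0 when columns 3 and 4 of low CO2, or columns 5 and 6 or 9 and 10 of normal CO2, were left out. Leaving out columns 5 and 6 or 9 and 10 of low CO2, or columns 3 and 4 or 7 and 8 of normal CO2, gave 1. In these 7 fits, 0.0614% to 0.184% of all probes were called higher. Without columns 1 and 2 of low CO2, 5 members passed, beside 0.675% of all probes. Without columns 1 and 2 of normal CO2 it was 5 and 0.613%, and without columns 7 and 8 of low CO2 it was 3 and 0.245%. Every such fit has 1 pair fewer, which by itself makes a call harder to reach. With no centring of the columns 1 member passed, which was none of the 4, beside 0.214% of all probes. With quantile normalization 5 members passed, beside 0.427% of all probes. Entering the 20 columns separately, which treats neighbours as independent, called 30 members, beside 9.21% of all probes called higher.

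Among the genes of metabolism, AT3G58610 encodes ketol-acid reductoisomerase, an enzyme of valine, leucine and isoleucine synthesis in the chloroplast. Its log2 signal was 1.94, 2.96, 2.43, 2.42 and 3.03 in low CO2, against 2.19, 2.31, 1.88, 1.67 and 2.04 in normal CO2. The first low CO2 pair lay inside the normal CO2 range and the other 4 above it, and the difference was 0.54. Without low CO2 columns 9 and 10 it was 0.42.

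AT5G58330 encodes the NADP-dependent malate dehydrogenase of the chloroplast (NADP-MDH), which reduces oxaloacetate to malate and is switched on in the light through thioredoxin. It had 3.58, 4.85, 5.12, 3.94 and 5.32 in low CO2, against 3.40, 4.21, 3.93, 4.17 and 4.36 in normal CO2. Pairs 2, 3 and 5 of low CO2 lay above all normal CO2 pairs, while pairs 1 and 4 lay within the normal CO2 range. The means were 4.56 ± 0.76 in low CO2 and 4.02 ± 0.38 in normal CO2 (SD, n = 5 each), a difference of 0.55, smaller than the SD of the low CO2 pairs. Leaving out low CO2 columns 9 and 10 gave 0.36, and leaving out low CO2 columns 1 and 2 gave 0.79.

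AT1G17160 encodes a ribokinase, which phosphorylates free ribose. Its values were 4.34, 5.48, 5.32, 4.89 and 5.83 in low CO2, against 4.44, 4.79, 4.58, 4.64 and 4.43 in normal CO2. The normal CO2 pairs were close together (SD 0.15) and the low CO2 pairs spread widely (SD 0.57), with the first low CO2 pair below all normal CO2 pairs. The difference was 0.60. AT5G67490, for an assembly factor of mitochondrial succinate dehydrogenase, had a difference of 0.54 with overlapping groups. It was dim, at percentile 8.96 of mean signal among measured probes, and differed by 0.40 without normal CO2 columns 3 and 4.

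Several members act in the folding and turnover of proteins. AT5G23540 encodes RPN11, the subunit of the proteasome that removes ubiquitin chains from substrates. Its log2 signal was 2.78, 2.99, 2.49, 2.93 and 2.85 in low CO2, against 2.63, 2.54, 2.004, 2.27 and 1.97 in normal CO2. One low CO2 pair, the third, fell below the highest normal CO2 pairs, and the difference was 0.53.

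FBL17, an F-box protein that marks inhibitors of the cell cycle for breakdown, had 0.89, 1.48, 1.55, 1.17 and 2.03 in low CO2, against 1.03, 0.65, 0.71, 0.65 and 0.97 in normal CO2. Only its first low CO2 pair reached down into the normal CO2 range, and the difference was 0.62. AT5G35100, a cyclophilin-type prolyl isomerase, had 0.89, 0.60, 0.48, 0.29 and 0.99 in low CO2, against 0.06, 0.18, -0.16, 0.02 and 0.30 in normal CO2. Columns 7 and 8 of low CO2 met columns 9 and 10 of normal CO2, at a difference of 0.57. AT5G06410, a J-domain co-chaperone of mitochondrial iron-sulfur cluster assembly, differed by 0.52 with overlapping groups.

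**Figure D3:**
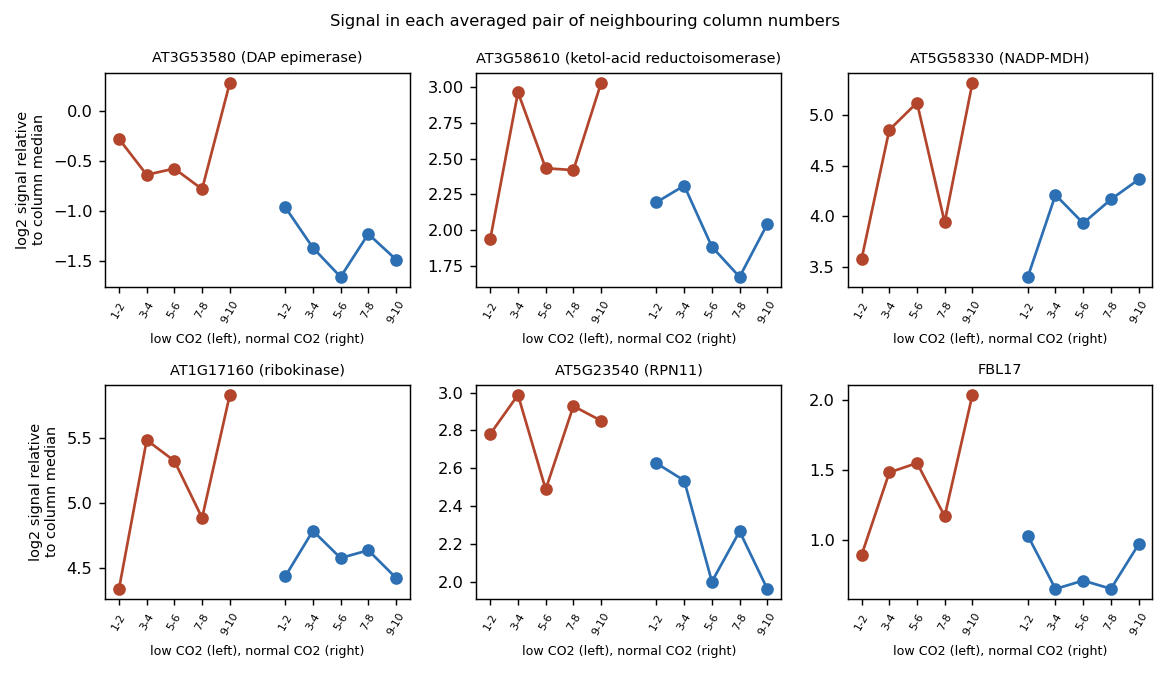
Log2 signal relative to the column median in each averaged pair of column numbers for 6 members, low CO2 on the left and normal CO2 on the right of each panel; lines join the pairs in column order, which carries no time or dose. In AT3G58610, AT5G58330, AT1G17160 and FBL17 the low CO2 columns 1 and 2 lie low and columns 9 and 10 high; only AT3G53580 has groups that do not overlap.

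Genes for RNA-binding and regulatory proteins were also among the members. AT3G04500 encodes a protein with an RNA recognition motif and differed by 0.77. Its log2 signal was 2.09, 2.98, 3.23, 2.06 and 3.88 in low CO2, against 1.77, 2.18, 2.27, 2.10 and 2.10 in normal CO2. In low CO2, 3 pairs stood above the normal CO2 pairs and the other two among them. Without low CO2 columns 9 and 10 the difference was 0.51.

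AT5G39980, a pentatricopeptide repeat protein of a family that processes organelle RNA, had 1.99, 1.94, 1.27, 1.48 and 1.05 in low CO2, against 1.10, 1.33, -0.14, 0.89 and 1.81 in normal CO2. The groups overlapped widely, and the difference of 0.55 was 0.27 without normal CO2 columns 5 and 6. AGL54, a member of the MADS-box family of transcription factors, differed by 0.54, and by 0.34 without low CO2 columns 3 and 4.

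For 4 further members with a signal throughout, described next, no role is given here. AT4G09620 had 2.91, 3.10, 3.70, 2.78 and 3.16 in low CO2, against 1.80, 2.20, 1.83, 2.70 and 2.80 in normal CO2. Its groups overlapped slightly, normal CO2 columns 9 and 10 reaching low CO2 columns 7 and 8, and the difference was 0.87. AT3G12000 differed by 0.90, with 0.89, 0.67, 1.94, 1.35 and 1.29 in low CO2, against -0.98, -0.01, 0.89, 0.69 and 1.02 in normal CO2. The first normal CO2 pair was far below the rest, and without it the difference was 0.58.

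AT5G06930 also differed by 0.90, with -0.61, -1.84, -1.04, -1.55 and -1.14 in low CO2, against -1.67, -1.59, -0.82, -4.90 and -1.71 in normal CO2. A single normal CO2 pair, columns 7 and 8, carried most of this difference, which was 0.21 without it. AT4G19430 was similar: its difference of 0.63 was 0.22 without normal CO2 columns 9 and 10, at -4.59.

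The other 15 genes with a signal in all 20 columns differed by 0.52 to 0.77. They were AT4G19160 (0.77), AT2G28755 (0.76), AT5G53080 (0.72), AT1G17744 (0.65) and AT5G49590 (0.63), and then, between 0.52 and 0.56, AT5G52960, AT1G44920, AT3G52070, AT3G51510, AT4G15840, AT4G02040, AT1G71910, AT1G32220, AT4G22490, which belongs to the lipid-transfer protein family, and AT4G24750, a rhodanese-domain protein. Their groups overlapped in every case. Leaving out normal CO2 columns 1 and 2 lowered the difference of AT3G52070 to 0.32. That of AT1G32220 was 0.33 without normal CO2 columns 9 and 10, and that of AT4G24750 was 0.34 without low CO2 columns 5 and 6.

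The 13 genes with zeros were dim: none ranked above the 11.1th percentile of mean signal among measured probes, and their median log2 signal was -3.76, against 1.13 for the 37 others. They held 24 zeros in low CO2 and 20 in normal CO2, which the rule leaves out. More zeros fell in low CO2 for 8 of the 13 genes, and more in normal CO2 for 4. Their distance from the array background is unknown, since no measure of it was analysed here. Of the genes with a signal throughout, AT5G53080, AT4G19430 and AT5G67490 also ranked below the 11.1th percentile, at 4.4, 8.3 and 8.96.

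AT1G05340 had the highest difference of all, 2.83. Its log2 signal was -2.72, -1.84, -1.87, -1.89 and -1.18 in low CO2, against -8.99, -6.46, -1.97, -2.96 and -6.04 in normal CO2. It had a signal in all 10 low CO2 columns but in only 6 of 10 normal CO2 columns, where the pairs ranged from close to the low CO2 level down to -8.99. AT5G38360, at 2.37, had a signal in 9 low CO2 and 6 normal CO2 columns.

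In both of these genes the zeros lay mainly in normal CO2. Setting each 0 to the lowest positive value of its column gave 6.13 for AT1G05340 and 3.41 for AT5G38360. These higher values follow from where the zeros lie, so they are no check on the sign. Adding a pseudocount of 0.0403 to every value gave 1.47 for AT1G05340 and 0.83 for AT5G38360. With zeros at the lowest positive value, 7 of the 13 genes were lower in low CO2 in place of higher. These were AT5G01960 (-0.92 in place of 1.23), AT3G20920 (-0.73 in place of 0.73), AT3G56500 (-0.68 in place of 0.65), AT2G27630 (-0.51 in place of 0.62), AT1G32730 (-1.84 in place of 0.59), AT3G51320 (-0.19 in place of 0.57) and AT2G34450 (-0.81 in place of 0.53). AT3G20920 encodes a SEC62 protein of translocation into the endoplasmic reticulum, and AT2G34450 a protein with a high mobility group domain. All 7 had more zeros in low CO2 than in normal CO2, so the sign of their difference rests on how a 0 is treated. With the pseudocount AT1G32730 was again lower in low CO2 (-0.20). The others of the 7 stayed above 0 with it, between 0.07 (AT3G20920) and 0.22 (AT3G51320), below the minimum of 0.5.

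The remaining 4 genes with zeros were AT1G21350 (1.30), AT5G44150 (1.17), AT2G26340 (1.13) and AT3G15490 (1.12). With zeros replaced, AT1G21350 had a difference of 0.94, AT5G44150 of 0.15, AT2G26340 of 1.39 and AT3G15490 of 1.77. With the pseudocount all 4 lay below the minimum of 0.5, at 0.18 for AT1G21350, 0.14 for AT5G44150, 0.18 for AT2G26340 and 0.45 for AT3G15490. With medians over columns AT5G44150 differed by 0.18 and AT2G26340 by 0.41. Without normal CO2 columns 7 and 8, AT5G44150 differed by 0.38 and AT3G15490 by 0.73, and without normal CO2 columns 3 and 4 AT2G26340 differed by 0.57. Among the genes with a signal throughout, the pseudocount put AT5G06930 (0.45), AT5G67490 (0.38), AT5G53080 (0.31) and AT4G19430 (0.29) below 0.5.

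**Figure D4:**
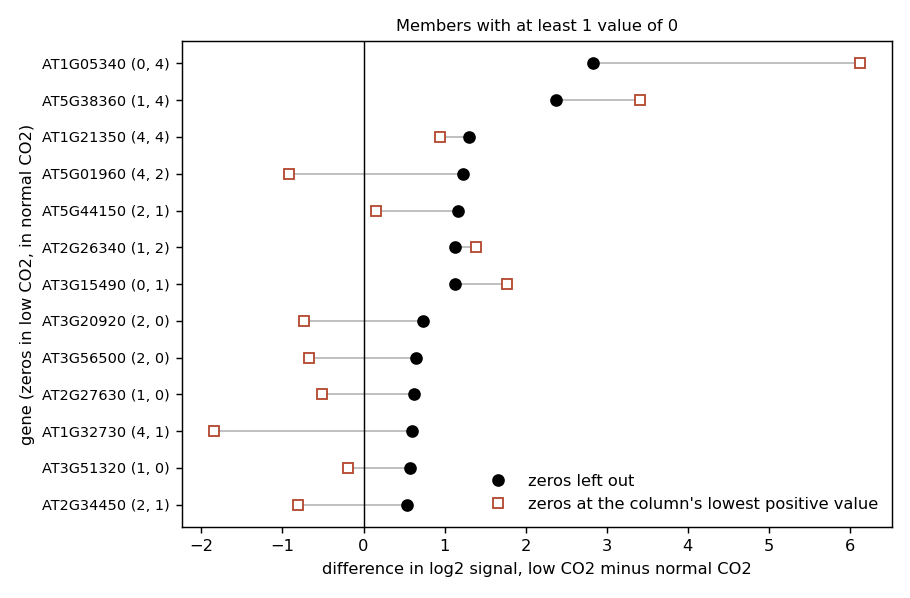
Difference in log2 signal, low CO2 minus normal CO2, of the 13 members with at least 1 zero, with zeros left out (filled circles) and with each zero set to its column's lowest positive value (open squares); the numbers after each gene are its zeros in low CO2 and in normal CO2. For 7 genes the open square lies below 0.

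The differences were also taken between pairs of the same number. Of 43 members with all 5 number-matched differences, 21 were higher in low CO2 in 5 of 5, 19 in 4 of 5 and 3 in fewer. Among all 2941 probes with a signal in all 20 columns, 10.2% were higher in 5 of 5. The 43 members also include genes with zeros, which that share does not cover. The members' counts follow from how they were chosen.

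Within low CO2, 16 of the 37 genes with a signal throughout (43.2%) were highest in columns 9 and 10. In columns 3 and 4 it was 10 (27%), and in columns 7 and 8 it was 0. Among all probes with a signal throughout the shares were 27.9%, 19.1% and 14.4%, so columns 9 and 10 were most often highest there too. Within normal CO2, 12 (32.4%) were highest in columns 1 and 2, 12 (32.4%) in columns 3 and 4 and 6 (16.2%) in columns 9 and 10. The shares over all such probes were 22%, 13.5% and 32.7%. The same values chose the members, and a gene with 1 high low CO2 pair meets the rule more easily, so these counts are a description. The median log2 signal of the 37 genes was 1.33, 1.72, 1.41, 1.35 and 1.82 in the low CO2 pairs and 1.14, 1.05, 0.77, 0.77 and 0.96 in the normal CO2 pairs. The median over all probes with a signal throughout stayed between 0.15 and 0.19 in every pair of both groups. For 12 of the 37 genes, the difference was lowest when low CO2 columns 9 and 10 were left out. What sets these columns apart was not tested.

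Leaving out each averaged pair in turn kept 15 of the 50 genes at 0.5 or more in all 10 settings, 13 of them with a signal throughout. A further 3, AT1G05340, AT5G38360 and AT1G21350, stayed above it in the 5, 7 and 2 settings that left them 6 values in each group. For 20 genes the difference shrank by more than 1.5 times in at least 1 setting, 10 of them with a signal throughout.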

How the data were processed

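Total RNA of 20 samples, 10 per group, was measured on arrays. The deposited table holds linear intensity values from the authors, with 1 column per sample. No source used here states the background correction, the scaling or the array type. The platform annotation tied 692 of 3439 probes to 1 gene, 870 to several, and did not list 1877. Of the 692, 690 matched the reference gene table (TAIR10.1), including all 50 members; gene roles are textbook background. That table has no product names and no sequences came with it, so planned counts by product words and promoter motifs were not made.

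Values of 0 were left out, the others put on the log2 scale and centred on the column median (column medians -1.35 to -1.05 in low CO2, -1.59 to -0.77 in normal CO2). Differences are means over columns; spreads are SDs over averaged neighbouring columns, so in genes with zeros the pair means can give another difference. Deviations of neighbours correlated at 0.33 to 0.90 across probes. The background fit was limma 3.58.1 in R 4.3.3 (lmFit, eBayes with a trend), tested on simulated data, over probes with at least 3 pairs per group. Named genes were the 12 largest differences, members with separated pairs, members called by limma, and the 3 genes on either side of the minimum, with others given by role. The members and lists were chosen with earlier results of these data known. The number of arrays limits the precision.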

Additional observations from a re-analysis of the deposited data

Results flagged for a closer look

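Each member's averaged pairs were examined in each group for 1 pair far from the other 4 or 3. This was the case in 3 of 99 groups. The members were chosen on these same values, so the count is a description and is not read against chance. AT5G06930 had a log2 signal of -4.90 in normal CO2 columns 7 and 8, while the other 4 normal CO2 pairs lay between -1.71 and -0.82. AT4G19430 had -4.59 in normal CO2 columns 9 and 10, while the others lay between -2.90 and -2.26. AT5G52960 had 0.77 in normal CO2 columns 5 and 6, while the others lay between 0.996 and 1.08.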

How the results depend on the processing

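The number of members by the rule was 50 and stayed between 37 and 65 in every setting run. Of the 50 genes, 35 remained with quantile normalization, 37 with cyclic loess, 35 with a pseudocount of 0.0403, 42 with zeros at the lowest positive value, 35 with medians over columns and 50 with no centring. The median difference of all probes moved by less than 0.1 with each scaling. Of 813 recomputed differences, 803 moved by less than the larger of the 2 groups' SDs over pairs, 2 moved further and 8 reversed. An outlying pair widens that SD, so this count does not measure stability: AT5G06930, with an SD of 1.58, fell from 0.90 to 0.21 within it. The 813 include a setting requiring 10 values above 0 per group, which repeats the same differences, and omit refits with too few values. With 1 pair left out, 32 of the 50 genes fell below 0.5 in 1 or more settings. The reversals came with zeros at the lowest positive value, for AT5G01960 (-0.9185), AT3G20920 (-0.7328), AT3G56500 (-0.6778), AT2G27630 (-0.511), AT1G32730 (-1.839), AT3G51320 (-0.1882) and AT2G34450 (-0.8051), and with the pseudocount for AT1G32730 (-0.1969); each of these genes has more zeros in low CO2.

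Members whose averaged pairs did not overlap numbered 7, and 2 with no centring (0.763% of all probes). They numbered 10 with quantile normalization (1.68%), 7 with cyclic loess (1.46%) and 9 with zeros at the lowest positive value (1.86%). Leaving out 1 pair, which eases the criterion for every probe, gave 7 to 14 members, and 1.81% to 3.62% of all probes against 1.62%. In limma, 69 probes passed, 12 of them higher in low CO2 (0.366% of all probes), with 4 members. Entering 20 separate columns, which counts neighbours as independent, gave 590 probes, 297 of them higher (9.21%), and 30 members. Without a trend in eBayes, 34 probes passed, 5 of them higher (0.153%), with 1 member. With no centring 77 probes passed, 7 of them higher (0.214%), with 1 member. Quantile normalization gave 103 probes, 14 of them higher (0.427%), and 5 members. Leaving out 1 pair gave 25 to 123 probes and 0 to 5 members, with 0.0614% to 0.675% of probes called higher. The cause of these moves was not tested.

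Averaged pairs of the same number correlated across the groups at -0.126 to 0.461, above 0.1 in 3 of 5. These mixed values do not settle whether the numbers pair the samples, and the limma fit of the main text did not pair them. With the replicate block, 89 probes passed, 24 of them higher (0.732%), and 5 members, among them all 4 of the unblocked fit.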
